A study of Mus musculus with 8 samples.

Results

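Most miRNAs are cut out of a long primary transcript by the nuclear enzyme Drosha before Dicer trims them in the cytoplasm. Some hairpins skip the first cut. Mirtrons are short introns that the spliceosome frees, and their debranched lariat folds into a hairpin that Dicer can use. Precursors of the miR-320 and miR-484 type arise as short transcripts of their own, whose 5′ end is already the end of the hairpin. The miRNAs described here were chosen by name as products of such routes, with no measured value in the rule. The list held 8 names, and 6 of them were among the 697 mature miRNAs counted: miR-320-3p, miR-484, miR-877-5p, miR-877-3p, miR-3102-3p and miR-3102-5p.2-5p. The other names, miR-1224-5p and miR-702-3p, were not analysed here.

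The counts come from small RNA libraries of isolated mouse cardiomyocytes, 4 from sham-operated mice and 4 from mice with transverse aortic constriction (TAC), a banding of the aorta that overloads the left ventricle. All were male, operated at 2 months of age, and the cells were freed from the heart by Langendorff perfusion 14 weeks after surgery, though the methods in another place give 14 weeks as the age of the mice. Neither the labels nor the methods name a strain or a transgene, and each library is 1 mouse. The 5 cardiomyocyte miRNAs of a marker list summed in sham to 177300 ± 16430 CPM, counts scaled to a common library total, and in the TAC libraries to 222000 ± 21210 CPM (SD, n = 4), led by miR-1a-3p. The groups overlapped in this sum. miRNA totals ran from 4005668 to 5392576 counts in sham and from 5507169 to 7798943 counts in TAC. The study profiled miRNAs because they can lower mRNA levels and translation. For the 6 miRNAs the question was whether products made without Drosha moved as the other miRNAs did.

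Mature sequences were found in RefSeq (GRCm38.p6) for 5 of the 6; miR-320-3p is named only. They are shown because none of the 5 shares its seed, bases 2 to 8 and in capitals here, with any other miRNA of the 593 in the files for which a sequence was found.
mmu-miR-484: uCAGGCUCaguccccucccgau
mmu-miR-877-5p: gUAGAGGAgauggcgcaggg
mmu-miR-877-3p: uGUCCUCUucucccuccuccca
mmu-miR-3102-3p: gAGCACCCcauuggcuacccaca
mmu-miR-3102-5p.2-5p: gGUGGUGCaggcaggagagcc

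The hairpins lie in different kinds of place on the mouse genome (GRCm38, the build of mm10). Mir320, at chr14:70443510-70443591 on the plus strand, overlapped no annotated gene. The start of Polr3d, which encodes a subunit of RNA polymerase III, lay 63 bases away on the opposite strand. Mir484, at chr16:14159626-14159692 on the plus strand, overlapped on the opposite strand part of an exon, outside the coding sequence, in 1 of 3 transcripts of Marf1, a regulator of meiosis and mRNA stability. Neither hairpin lay in an intron of a gene on its own strand.

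The mirtrons filled their introns exactly. Mir877, at chr17:35960730-35960814 on the minus strand, was an 85-base intron in 1 of 8 transcripts of Abcf1, a factor of translation initiation. Mir3102, at chr7:100882306-100882409 on the minus strand, was a 104-base intron of Arhgef17. It lay inside an intron, of any length, in 2 of 4 transcripts of this gene and within an exon of 1 further transcript. miR-877-5p began at base 1 of its intron, and miR-877-3p ended 1 base before the intron's last base. miR-3102-3p likewise stopped 1 base short of the intron's end. miR-3102-5p.2-5p began at base 23, directly after the outer 5′ product, which is annotated at bases 1 to 22. The pair counted from this hairpin is thus an outer 3′ product and an inner 5′ product, not the 2 strands of 1 duplex.

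The 6 miRNAs together took a small share of all miRNA counts, with a mean of 0.109% ± 0.00665 over the sham libraries and of 0.102% ± 0.00695 over those of TAC (SD, n = 4). Their mean counts spanned a wide range. miR-484 ranked 62 of 697 with a mean of 4297 counts per library, miR-320-3p ranked 103 with 1239, and miR-3102-3p ranked 153 with 354.1. miR-3102-5p.2-5p followed at rank 236 with a mean of 80.38 counts. The 2 products of miR-877, at 19.62 and 18.75 counts, stood at ranks 332 and 335. Counting error alone was 1.53% of the mean for miR-484 and 22.6% for miR-877-5p, so by counting alone the miR-877 products are the least precise of the 6. Counts per library total are given first, since they need no chosen miRNA as a reference. They take the miRNA total as the scale, so a change in very abundant miRNAs moves the values of all others.

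miR-484 was counted at 735.1, 787, 897.3 and 722 CPM in the 4 sham libraries. In the TAC libraries it was at 822.9, 699.8, 706.3 and 687.5 CPM. TAC 2, 3 and 4 lay below every sham library and TAC 1 lay above 3 of them, so the groups overlapped.

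miR-320-3p was at 231.4, 263.5, 175.5 and 176.7 CPM in sham and at 197.9, 185.8, 207.6 and 276.2 CPM in TAC. Sham 1 and 2 were high within their group, TAC 4 was the highest of all 8, and the groups overlapped. The other arm of this hairpin, miR-320-5p, had a mean of 0.375 counts, so nearly all product of Mir320 was the 3p arm.

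Of the products of Mir3102, miR-3102-3p was at 110, 52.48, 54.82 and 82.38 CPM in sham and at 67.19, 52.44, 53.15 and 45.13 CPM in TAC. The sham libraries differed more among themselves than the groups did, with sham 1 highest. miR-3102-5p.2-5p was at 17.72, 9.272, 11.41 and 9.487 CPM in sham and at 22.15, 14.36, 16.72 and 10.66 CPM in TAC. All 4 TAC libraries lay above sham 2 and sham 4, but only TAC 1 exceeded sham 1. The inner 3′ product of this hairpin, miR-3102-3p.2-3p, had a mean of 3 counts.

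Of the products of Mir877, miR-877-5p was at 4.321, 3.152, 4.28 and 2.496 CPM in sham and at 5.629, 2.949, 3.943 and 1.384 CPM in TAC. TAC held both the highest and the lowest library. miR-877-3p was at 2.377, 2.225, 4.076 and 1.498 CPM in sham and at 4.176, 3.077, 5.047 and 3.046 CPM in TAC. All 4 TAC libraries exceeded sham 1, 2 and 4 and 2 of them exceeded sham 3. By library total, the groups overlapped for all 6 miRNAs. Among the 409 miRNAs with a mean above 10 counts, the TAC libraries were all lower than the sham libraries for 19.6% and all higher for 2.93%.

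**Figure D1:**
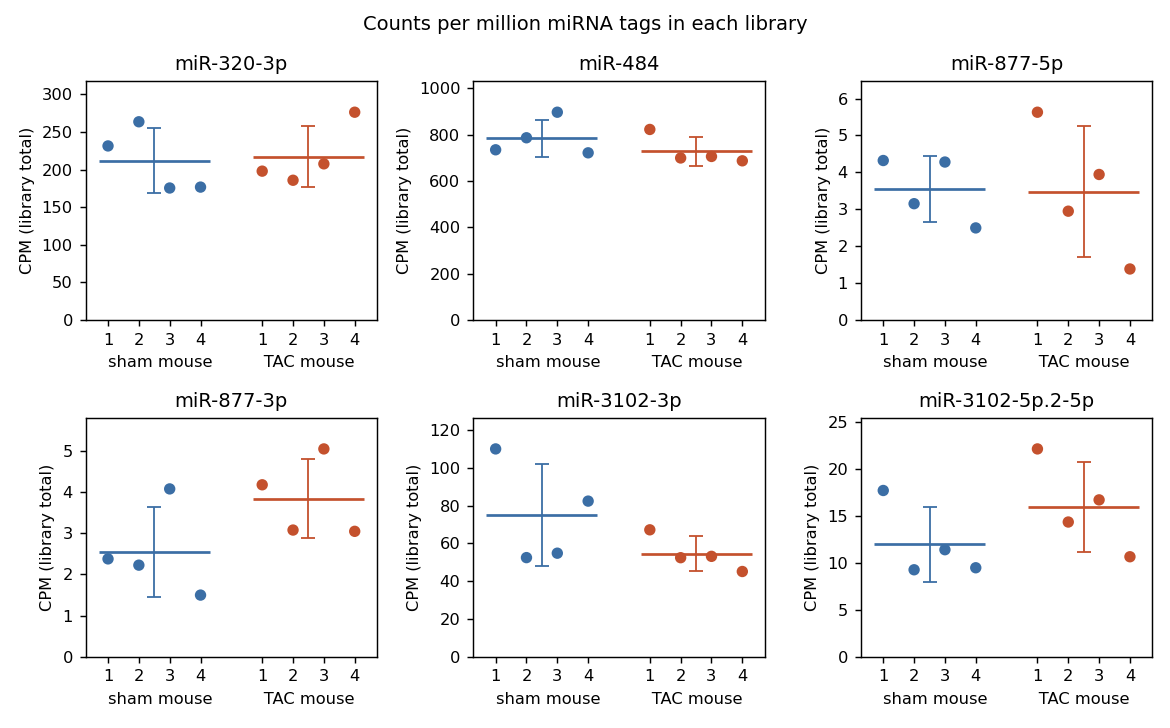
CPM by library total of the 6 miRNAs in each sham (blue) and TAC (red) mouse, with the y axis starting at 0 and 1 point a library. Horizontal lines are group means and bars are SD (n = 4); the groups overlap in every panel.

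The first comparison used the reference miRNAs of the study, miR-126a-3p and miR-19b-3p, whose levels are then taken as constant. The study states that it checked them as unaltered by QPCR, with small nucleolar RNAs as the controls for its miRNA QPCR; no QPCR value was analysed here. The study gives no formula, and a single factor for the TAC group was used here, whose own error is not in the SE or the p. Their TAC to sham ratio of mean CPM was 0.537 (geometric mean), and multiplying the TAC totals by it raises every TAC value by 0.90 on the log2 scale. Calls needed a change of more than 1.7-fold and an adjusted p under 0.05 in edgeR's quasi-likelihood test. On this scale 2 of the 3 miRNAs with a mean above 100 counts were called higher in TAC and none lower, against 36.8% called higher and 0.897% called lower of all 223. miR-320-3p rose 1.91-fold (log2 0.93, SE 0.19, adjusted p = 0.00266) and miR-484 rose 1.73-fold (log2 0.79, SE 0.13, adjusted p = 0.000694). The fold of miR-484 lay just above the threshold, and without sham 2 or without TAC 1 it fell short of it, at a log2 of 0.71 and 0.73. miR-3102-3p had a log2 fold change of 0.44 (SE 0.25, adjusted p = 0.152). It was 0.80 and called without sham 1 (adjusted p = 0.0104), and 0.22 without sham 2 and 0.23 without sham 3. With 1 reference factor per library in place of 1 for the group, miR-320-3p and miR-484 were called at adjusted p = 0.0138 and 0.00858 (log2 0.88 and 0.77), and miR-3102-3p was at 0.32 (adjusted p = 0.467).

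With the minimum lowered to a mean of 10 counts, all 6 entered a fit of 409 miRNAs, and 4 of 6 were called higher, against 29.8% of the 409, with 0.489% of these called lower. miR-877-3p rose 2.76-fold (log2 1.46, SE 0.37, adjusted p = 0.00819) and miR-3102-5p.2-5p rose 2.48-fold (log2 1.31, SE 0.30, adjusted p = 0.00551). miR-877-5p had a log2 fold change of 0.83 (SE 0.42, adjusted p = 0.128). It was 1.16 and called without TAC 4 (adjusted p = 0.0213), and 0.51 without TAC 1 (adjusted p = 0.355). From each of the 2 mirtron hairpins, then, 1 product was called and the other was not. The scaled CPM separated the groups for miR-484, miR-320-3p, miR-877-3p and miR-3102-5p.2-5p, 4 of 6, where 39.9% of the 409 had all TAC values above all sham values and 0.244% the reverse.

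Set beside the miRNAs at large, 5 of the 6 lay above the median change and miR-3102-3p below it. The median log2 fold change was 0.79 over the 3 miRNAs and 0.61 over all 223, of which 89.7% were positive. Over the 6 it was 0.88 and over all 409 it was 0.59. Ranked from the highest among 223, miR-320-3p stood at 52, miR-484 at 77 and miR-3102-3p at 152. Among 409, miR-877-3p stood at 23, miR-3102-5p.2-5p at 39 and miR-877-5p at 132. No test was made of the 6 as a set. The 6 miRNAs next to the first 3 in abundance had log2 fold changes from -0.29 to 0.85. miR-423-3p, just above miR-484 in abundance, had a log2 fold change of 0.85, and miR-151-3p, just below it, 0.56. miR-674-3p, next above miR-320-3p, had 0.79 and miR-351-5p, next below it, 0.11. miR-362-5p and miR-676-3p, on either side of miR-3102-3p, had -0.29 and 0.41.

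The second comparison asked whether the 6 moved relative to the other miRNAs, with TMM factors in edgeR, which centre the bulk of the miRNAs. None of the 3 above 100 counts was called, and none had an unadjusted p below 0.05. Of all 223, 1.35% were called higher, 4.48% were called lower and 12.1% were higher at that unadjusted p, which 66 of the 223 passed in either direction. DESeq2 with its own size factors called none of the 3 either. miR-320-3p had a log2 fold change of 0.24 (SE 0.18, adjusted p = 0.358), miR-484 of 0.10 (SE 0.12, adjusted p = 0.605) and miR-3102-3p of -0.26 (SE 0.27, adjusted p = 0.547). The median over all 223 was -0.08, against 0.61 by reference scaling. With this shift of nearly all values the sign of miR-3102-3p differed between the scalings, and it passed the threshold in neither. Its rank was 152 of 223 by reference scaling and 153 by TMM. Leaving out 1 library moved miR-484 between 0.037 (without TAC 1) and 0.16 (without sham 3) and miR-320-3p between 0.12 (without TAC 4) and 0.37 (without sham 2).

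At the minimum of 10 counts none of the 6 was called relative to the other miRNAs, against 1.71% called in each direction of all 409. An unadjusted p below 0.05 was reached by 2 of the 6, both higher, against 15.2% of the 409 that were higher at that p. These were miR-877-3p, with a log2 fold change of 0.89 (SE 0.34, adjusted p = 0.140), and miR-3102-5p.2-5p, with 0.71 (SE 0.28, adjusted p = 0.149). Without sham 1, miR-3102-5p.2-5p was called, at 0.96 (adjusted p = 0.0437). In the same fit the median over the 6 was 0.29, against 0.0015 over the 409, and 5 of the 6 were positive (83.3%), against 50.6% of the 409. The order of the miRNAs was nearly that of reference scaling, with miR-877-3p at rank 25 by TMM and 23 by reference scaling. For miR-3102-5p.2-5p the ranks were 40 and 39. Places against the median by TMM are thus not a second result.

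**Figure D2:**
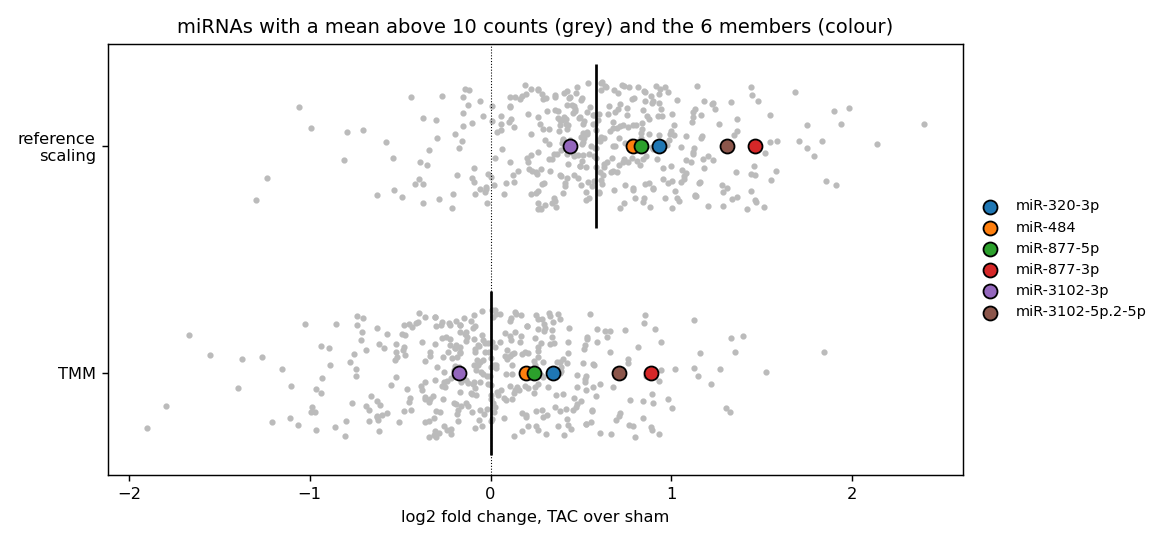
Log2 fold change of TAC over sham (x axis) for the 409 miRNAs with a mean above 10 counts (grey, jittered vertically) and the 6 miRNAs (coloured), by reference scaling and by TMM, with black lines at the medians. In both rows 5 of the 6 points lie to the right of the median (0.59 and 0.0015) and miR-3102-3p to its left, with miR-877-3p and miR-3102-5p.2-5p farthest to the right of the 6 in both rows. The scalings differ by a nearly constant shift, so the places of the points in the rows are not separate results.

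The same question was put to each library by setting a miRNA against the median of the 223 tested miRNAs of that library, on a log2 scale. That median was itself lower in every TAC library, at 140.9 to 152.4 CPM against 175.6 to 196.1 CPM in sham. miR-484 lay 1.91, 2.07, 2.35 and 1.99 above the median in sham and 2.47, 2.31, 2.26 and 2.17 above it in TAC. Its level above the median thus differed by 0.22, and sham 3 was the one sham library within the range of TAC (exact permutation of the libraries, two-sided, p = 0.114, adjusted over 223 miRNAs 0.28). miR-320-3p was at 0.24, 0.50, 0 and -0.042 in sham and at 0.42, 0.40, 0.49 and 0.86 in TAC. Only sham 2 reached the TAC range, and the difference of 0.37 was not called (exact p = 0.114, adjusted 0.28).

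For miR-3102-3p the difference in this level was -0.076 (exact p = 0.83, adjusted 0.943). For the 3 miRNAs under 100 counts no adjusted p was computed. miR-3102-5p.2-5p differed by 0.74 (exact p = 0.0571), miR-877-3p by 0.94 (exact p = 0.0857) and miR-877-5p by 0.15 (exact p = 0.771). With 4 libraries in each group this test can reach 0.0286 at the lowest. The groups overlapped for all 6, where the TAC libraries were all higher for 11.2% of the 409 miRNAs and all lower for 7.09%.

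**Figure D3:**
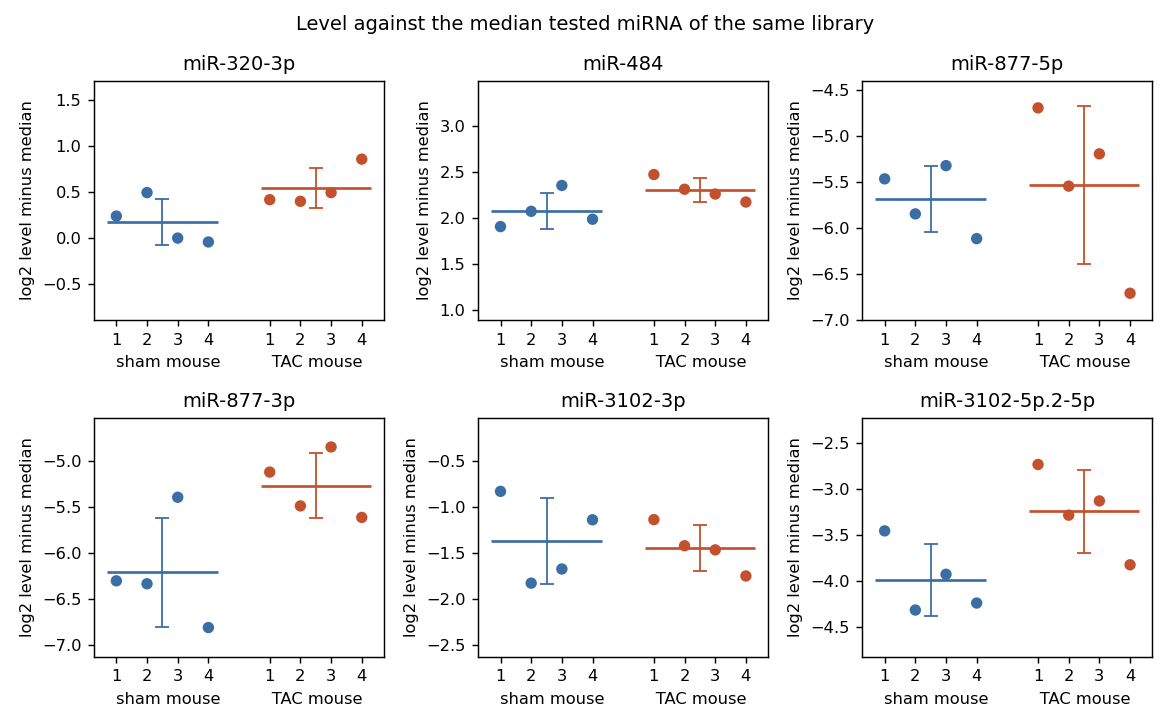
Log2 level of each of the 6 miRNAs minus the median of the 223 tested miRNAs of the same library, in sham (blue) and TAC (red) mice; lines are means and bars SD (n = 4), and every panel spans 2.6 log2 units. miR-877-3p and miR-3102-5p.2-5p have the widest gaps between group means, 0.94 and 0.74, with overlapping libraries in each.

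Ratios of 2 of these miRNAs within a library depend on no scaling at all. The ratio of miR-3102-5p.2-5p to miR-3102-3p was 0.162, 0.178, 0.210 and 0.117 in sham and 0.331, 0.275, 0.316 and 0.237 in TAC. The TAC ratios were all higher than the sham ratios, and the inner 5′ product went from 14.1% ± 2.88 to 22.3% ± 2.56 of the pair (SD, n = 4 each). The log2 ratio differed by 0.82, a 1.76-fold change (exact permutation, two-sided, p = 0.0286, which is the lowest this design gives, and 0.0857 adjusted over the 3 ratios computed). Without TAC 1, TAC 2 or TAC 3 the exact p was 0.0571. Among 110 hairpins with a 5p and a 3p product of the same name above a mean of 10 counts, the groups did not overlap in 12.7%. In 12 of them the log2 change of the ratio was at least as large in either direction. The miR-3102 pair is not among the 110 and, as an outer and an inner product, is an unlike kind of pair.

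The 2 products of Mir877 gave ratios of 5p to 3p of 1.78, 1.40, 1.05 and 1.62 in sham and 1.34, 0.959, 0.785 and 0.467 in TAC. The 5p product outnumbered the 3p product in every sham library and only in TAC 1 among the TAC libraries. The log2 ratio was lower in TAC by 0.79 with overlapping groups (exact p = 0.0571, adjusted over 3 ratios 0.0857). These ratios rest on 6 to 32 counts a product and library.

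miR-484 was the more abundant of the 2 non-intronic miRNAs in every library. Its ratio to miR-320-3p was 3.18, 2.99, 5.11 and 4.08 in sham and 4.16, 3.77, 3.40 and 2.49 in TAC. The groups overlapped, and the log2 difference was -0.14 (exact p = 0.6, adjusted 0.6).

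**Figure D4:**
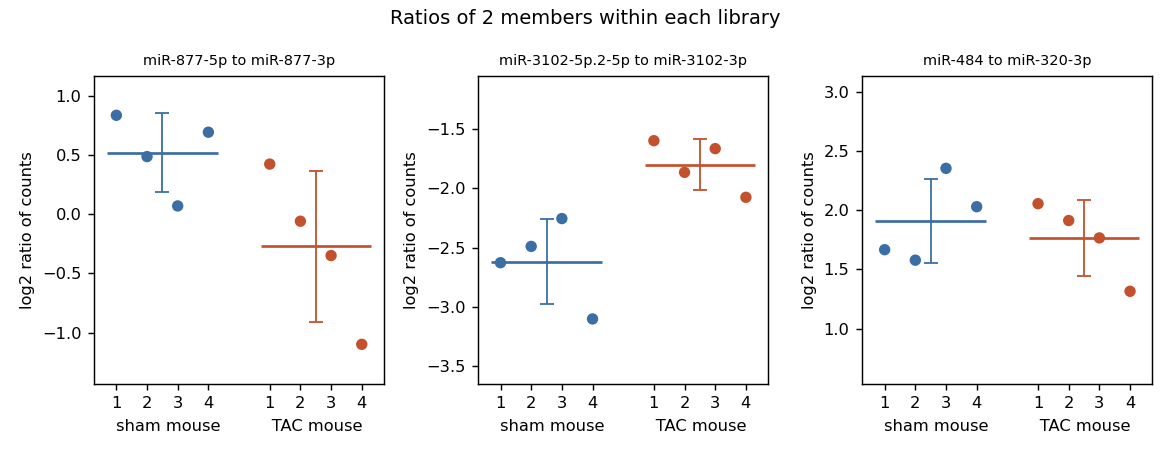
Log2 ratio of the counts of 2 miRNAs within each library, in sham (blue) and TAC (red) mice, with means and SD (n = 4). The ratio of miR-3102-5p.2-5p to miR-3102-3p is the one of the 3 whose groups do not overlap.

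Although miR-484 and miR-320-3p are grouped by how they are made, they did not follow each other closely across the 8 libraries. The Pearson r of their levels against the library median was 0.16, a description over libraries that share 2 groups. In sham 3 they stood apart, with miR-484 at its highest sham level, 2.35, and miR-320-3p at 0. The r was not recomputed with a library left out. The miRNAs most like miR-320-3p among the 223 were miR-208b-3p (r = 0.92), which lies in an intron of the beta myosin heavy chain gene, miR-216a-5p (r = 0.86), known from the pancreas, and miR-205-5p (r = 0.84), known from epithelia. Those most like miR-484 were miR-345-5p (r = 0.93), miR-1843a-5p (r = 0.92) and miR-486a-3p (r = 0.92).

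Markers of other cells moved with some of these values. The 7 epithelial miRNAs summed to 1456 CPM in TAC 4, against 253.9 to 356.1 CPM in the other TAC libraries and 286.1 to 450.1 CPM in sham, led by miR-200a-3p. The 3 miRNAs of the pancreas acinar list, led by miR-216a-5p, summed to 88.88 CPM in TAC 4 and to at most 33.01 CPM elsewhere. TAC 4 was also the library with the most miR-320-3p. Without it, miR-320-3p had a log2 fold change of 0.85 by reference scaling (adjusted p = 0.00288, called) and of 0.12 by TMM (adjusted p = 0.672). No marker of any list was at 0 in all 8 libraries.

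The endothelial list, miR-126a-3p and miR-126a-5p, summed to 60050 ± 10600 CPM in sham and 32860 ± 2415 CPM in TAC, lower in every TAC library than in any sham library. By library total the same held for 19.6% of the 409 miRNAs with a mean above 10 counts. The endothelial list contains a reference miRNA of the scaling. By TMM at a mean above 100 counts the other reference, miR-19b-3p, was called lower at a log2 fold change of -0.79 (SE 0.18, adjusted p = 0.0196). At a mean above 10 counts it was at -0.69 and not called (adjusted p = 0.0535). The erythroid list, led by miR-144-3p, summed to 961.6 ± 444.5 CPM in sham and 330 ± 248.8 CPM in TAC with overlapping groups. The leukocyte list, led by miR-150-5p, went from 1920 ± 480.2 to 1226 ± 172.7 CPM and the fibroblast and smooth muscle list, led by miR-143-3p, from 49310 ± 3023 to 44280 ± 3442 CPM, both with overlap. These sums are by library total. For the fibroblast and smooth muscle list and the leukocyte list the direction depends on the scale. By reference scaling the median log2 fold change was -0.01 for the endothelial list, 0.60 for the fibroblast and smooth muscle list (2 of 7 called higher) and 0.13 for the leukocyte list (1 of 4 called higher), and by TMM it was -0.69, -0.09 and -0.55. The erythroid list was at -0.62 and -1.33, with none of the 2 tested called. The epithelial list was at 1.76 and 1.06, the pancreas acinar list at 1.79 and 1.10, and the cardiomyocyte list at 0.93 and 0.23. By library total only TAC 4 stood out in the epithelial and pancreas acinar sums, and the changes of these lists are not given here without it. By reference scaling 5 of 6, 1 of 1 and 4 of 5 of the tested members of the epithelial, pancreas acinar and cardiomyocyte lists were called higher, beside 36.8% of all 223. By TMM none of these was called. The part of these cells in the values of the 6 miRNAs was not tested. In bulk samples fewer cells of a type, less miRNA per cell and the choice of scale cannot be told apart.

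The mature sequences were rich in G and C, a feature the choice of names did not use. The 5 with a sequence had a median GC content of 63.6%, between 59.1% and 71.4%, against a median of 47.8% for the 354 miRNAs that had a sequence and a mean above 10 counts. Of those 354, 20.6% had at least the GC content of the lowest of the 5. The first base was G in miR-877-5p, miR-3102-3p and miR-3102-5p.2-5p, 3 of the 5, and in 9.6% of the 354. These 3 are not independent, since both miR-3102 products come from 1 hairpin. miR-877-5p starts with the first base of its intron, so its first base is not free of the choice of names by route. Lengths ran from 20 to 23 bases, with a median of 22 in both sets. Across the same 354, GC content and the TMM log2 fold change had a Pearson r of 0.13, a description across miRNAs that are not independent.

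**Figure D5:**
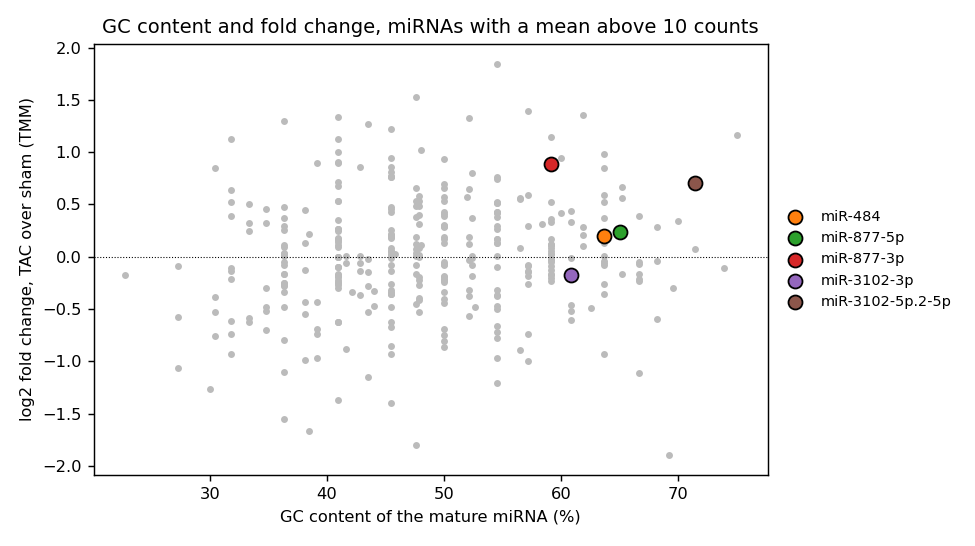
GC content of the mature miRNA in percent (x axis) against the log2 fold change of TAC over sham by TMM (y axis), for 354 miRNAs with a mean above 10 counts (grey), with 5 of the 6 miRNAs in colour. The 5 lie at 59.1% or more, spread from -0.17 to 0.89 on the y axis.

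A wider list of related miRNAs was set beside the 6: other products of the same hairpins, miRNAs from small nucleolar RNAs, transfer RNAs and other short hairpins, and every miRNA whose hairpin fills an intron of at most 150 bases with its ends within 30 bases. The files held 26 such names, of which 7 had a mean above 10 counts. By reference scaling 5 of the 7 were called higher and none lower, again beside 29.8% of the 409. The 7 include both products of let-7i, a canonical miRNA that meets the intron rule, and let-7i-5p is among the 5 calls. The mirtron product miR-7068-3p, from an intron of Cherp, was counted 4, 7, 11 and 6 times in sham and 24, 19, 27 and 13 times in TAC. The TAC libraries were all deeper than the sham libraries, and per library total, with overlapping groups, the mean was 1.47 ± 0.575 CPM in sham and 3.21 ± 1.29 CPM in TAC (SD, n = 4 each). The miRNA rose 3.95-fold by reference scaling (log2 1.98, SE 0.43, adjusted p = 0.00414). By TMM it had a log2 fold change of 1.39 (adjusted p = 0.0686), and set against the library median its groups overlapped.

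miR-1981-5p, a mirtron product from an intron of Marc2, rose 1.86-fold by reference scaling (adjusted p = 0.0206), and its partner miR-1981-3p had a log2 fold change of 0.97 with an adjusted p of 0.056. miR-1839-5p, from a small nucleolar RNA, rose 1.79-fold (adjusted p = 0.00714). Neither miR-1839-5p nor a product of miR-1981 was called by TMM, at log2 fold changes of 0.25, 0.31 and 0.37. The 1 call of the 7 by TMM was miR-1983, from a transfer RNA, at 1.53 (adjusted p = 0.0121), beside 1.71% of the 409 called higher. let-7i-5p, which meets the intron rule though it is a canonical miRNA, was called by reference scaling at 0.77 on the log2 scale (adjusted p = 0.000573), and let-7i-3p was not called at 0.57 on the log2 scale.

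miR-451a is the reverse case, cut by Drosha and not by Dicer, and is abundant in red blood cells. It was counted 400, 1388, 1981 and 1112 times in sham and 91, 429, 1025 and 1049 times in TAC. The libraries of each group spread widely, and it was called neither by reference scaling (log2 -0.54, SE 0.63, adjusted p = 0.468) nor by TMM (log2 -1.25, SE 0.63, adjusted p = 0.201). On the log2 scale against the library median its SD was 1.02 in sham and 1.51 in TAC (n = 4 each), more than that of any of the 6 miRNAs in either group.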

How the data were processed

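Small RNA libraries were made from 1 µg of RNA (RIN above 8) from 1 of 4 tubes of cells of each heart. The authors deposited raw counts of tags per mature miRNA and library. The submitters' notes name the build mm10 and StringTie 1.3.1, with no role; the aligner, the miRNA reference and the handling of tags matching several miRNAs are not given in the sources used here. No 2 libraries were copies.

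Counts were tested in R 4.3.3 with edgeR 4.0.16 (glmQLFit, glmQLFTest, group as the only term), with Benjamini-Hochberg adjustment over every miRNA whose counts averaged above 100 across libraries, or above 10 where stated, so that all 6 were tested. Scaling was by the reference miRNAs or TMM. The scripts were tested on simulated data. DESeq2 1.42.0 was an alternative. Levels and ratios used 0.5 added counts and exact permutation over 70 arrangements. The smallest exact p was 0.0286, and p-values cover the spread between these mice. Standard errors were the log2 fold change divided by the square root of F.

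Named were the 6, the other listed miRNAs above 10 counts, the reference miRNAs, markers, the neighbours in abundance, and the 3 most like miR-320-3p and miR-484 by Pearson r over 8 libraries. The members and lists were chosen with earlier results of these data known. Plots used Python 3.11.15 and matplotlib 3.10.9.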

Additional observations from a re-analysis of the deposited data

Results flagged for a closer look

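Among the 22 groups of 4 libraries examined for a library far from the rest, which covered the 6 miRNAs, their 3 ratios and the reference miRNAs, 1 stood out. This was miR-484 by library total in TAC, where TAC 1 was at 822.9 CPM and the others lay between 687.5 and 706.3 CPM. The gap of TAC 1 to its nearest neighbour was 0.861 of the range of the group, above Dixon's critical value at 95% for 4 samples. Chance gives about 1 such group in 20. Without TAC 1, miR-484 had a log2 fold change of 0.73 by reference scaling, under the fold threshold.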

How the results depend on the processing

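Of 390 values recomputed for 27 results, 308 kept their direction and their side of the threshold or stayed within the margin set for them. By reference scaling, 2 of 3 miRNAs were called; the number was 0 by TMM, 0 by library totals, 1 where miR-126a-3p was the sole reference, and 4 of 6 at a mean above 10 counts, with no filter, and at a mean above 10 counts with the replicate block. Leaving out 1 library gave 1 to 3, and 3 to 5 of 6 at the lower minimum. The left-out libraries and the block at the lower minimum were added after the data had been seen. Relative to the other miRNAs the number was 0 under every alternative, except 0 to 1 of 6 when 1 library was left out at the lower minimum. By library totals the log2 fold change was -0.11 for miR-484 and -0.46 for miR-3102-3p, and by TMM -0.26 for miR-3102-3p. Leaving out 1 library turned the direction for miR-3102-3p by TMM (-0.41 to 0.020) and against the median (-0.23 to 0.10), for miR-877-5p by TMM (-0.045 to 0.49) and against the median (-0.13 to 0.54), and for the ratio of miR-484 to miR-320-3p (-0.25 to 0.0044). The ratio of the miR-3102 products stayed between 0.66 and 0.94, that of miR-877 between -1.02 and -0.52. Against the median, leaving out 1 library gave 0.26 to 0.48 for miR-320-3p, 0.17 to 0.32 for miR-484, and 0.74 to 1.22 for miR-877-3p, each reaching an exact p of 0.0286 without 1 sham library (sham 2 for miR-320-3p, sham 3 for the others). The methods speak of 4 pairs of sham and TAC mice without saying what pairs them or whether the numbers mark the pairs. The deviations of same-numbered libraries correlated at 0.16, -0.37, 0.32 and -0.22, so the numbers were not taken as pairs, and a pairing was not excluded by this; with the replicate block the calls by reference scaling were 2 of 3. For the ratio of the miR-3102 products the block leaves the difference at 0.82 by construction, and 4 pairs cannot reach an exact p of 0.05, so it tests nothing there.

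Calls higher among all miRNAs were 82 by reference scaling, 3 by TMM, 1 by library totals and 127 with no filter; calls lower were 2, 10, 23 and 2, and 1 with miR-19b-3p as the sole reference. Relative to the other miRNAs, 3 higher became 5 with DESeq2, 7 at a mean above 10, 6 with no filter and 1 with the block, and 10 lower became 4 with no filter. With 1 library left out, 3 higher became 1 without TAC 2 and 10 lower became 4 without sham 3; at the lower minimum, 7 higher became 1 and 7 lower became 2 without TAC 2. With 1 reference factor per library, 73 were called higher by reference scaling. The causes were not tested.

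Counting error at the mean was 22.6% and 23.1% for the miR-877 products, beside CVs between libraries of 25.1% to 51.2%, and 11.2% for miR-3102-5p.2-5p, beside 33% in sham and 30.2% in TAC. Among the values analysed here none fixes the scale between groups apart from the reference miRNAs, which the study checked by QPCR, and miR-320 has no sequence here.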
